A study of Rattus norvegicus with 12 samples.

Results

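The miRNAs of the imprinted Dlk1-Dio3 cluster were examined in rat heart. They were the array's miRNAs whose names carry one of the numbers given to this cluster, with any letter or arm, and they made up 86 of the 758 rat miRNAs on the array. The choice went by name, with earlier results of these data known. The hearts came from 12 male Wistar rats, one array each. The Sham group (4 rats) had surgery without ligature and then received saline. The MI group (4 rats, labelled CHF for chronic heart failure) had the left anterior descending coronary artery ligated and also received saline. The YQFM group (4 rats) had the same ligation and received Yiqifumai Powder Injection, a Chinese herbal preparation, at 5 mg/kg per day. Injections were intraperitoneal, began 4 weeks after surgery and went on for 28 days in every group, and RNA was taken from left ventricle near the infarct. Bulk tissue was measured, so that fewer cells of a type and less RNA per cell cannot be told apart.

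The Dlk1-Dio3 locus carries one of the largest miRNA clusters of placental mammals. Dlk1, Rtl1 and Dio3 are read from the paternal chromosome, while Meg3 and the long noncoding transcripts that hold the miRNAs are read from the maternal one. The miRNAs are abundant in embryo, placenta and brain. Those that lie opposite Rtl1 pair fully with its messenger, and miR-410 and miR-495 are known for driving cardiomyocyte division in culture.

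A mature sequence was found in RefSeq (build GRCr8) for 84 of the 86 members, and all 84 lie on chromosome 6. The plus strand holds 81 of them, and the minus strand holds 3, which are both arms of miR-299b and miR-409b. They come from 46 miRNA genes in 2 stretches. The first stretch holds 12 genes over 56.5 kb, from Mir770 inside Meg3 through the miRNAs inside Rtl1 to Mir370. The second holds 34 genes over 36.4 kb, from Mir379 to Mir410, and begins 189 kb further on. In the array's own annotation (build rn4) the probes of 75 members map to chromosome 6, between 134141381 and 134425147, and those of the other 11 carry no position. The sequences below are those of the 13 members detected on any array, in chromosome order, and of miR-381-3p, which the study had selected. Capitals mark the seed, bases 2 to 8, through which a miRNA pairs with its targets.
rno-miR-770-5p: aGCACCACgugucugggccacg
rno-miR-770-3p: gUGGGCCUgacguggag
rno-miR-431: uGUCUUGCaggccgucaugca
rno-miR-341: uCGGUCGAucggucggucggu
rno-miR-370-3p: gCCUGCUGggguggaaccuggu
rno-miR-494-3p: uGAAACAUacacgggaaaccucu
rno-miR-667-5p: cGGUGCUGguggagcagugagcac
rno-miR-667-3p: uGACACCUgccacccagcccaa
rno-miR-381-3p: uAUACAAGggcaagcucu
rno-miR-487b-3p: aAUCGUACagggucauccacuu
rno-miR-382-5p: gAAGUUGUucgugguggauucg
rno-miR-134-5p: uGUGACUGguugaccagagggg
rno-miR-668: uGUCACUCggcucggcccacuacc
rno-miR-409a-3p: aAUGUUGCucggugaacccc
No 2 of the 13 detected members share a seed, and none shares one with another miRNA of the array that has a single RefSeq sequence. miR-381-3p has the seed of miR-539-3p. On GRCr8, miR-431 lies at chr6:134326468-134326488 within Rtl1, and miR-409a-3p, near the far end of the second stretch, lies at chr6:134579231-134579250.

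Most of the cluster was at background in these hearts. Detection on an array required that the scanner software had marked as well above background over 50% of the spots of any one probe of the miRNA. Of the 86 members, 13 (15.1%) were detected on at least 1 array and 73 on none, against 40.8% of the 672 other miRNAs detected on at least 1 array. Those seen on all 12 arrays were the 9 miRNAs miR-770-3p, miR-431, miR-341, miR-370-3p, miR-494-3p, miR-667-5p, miR-134-5p, miR-668 and miR-409a-3p. miR-667-3p was detected on 11 arrays, miR-382-5p and miR-487b-3p on 10 each, and miR-770-5p on 1 Sham array.

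The number of members detected per array did not separate the groups. Sham arrays held 12 ± 0.82 (SD, n = 4, range 11 to 13). The mean was 11.2 ± 0.96 on MI arrays (range 10 to 12) and 11.8 ± 0.50 on YQFM arrays (range 11 to 12). The ranges overlap. The share of all other miRNAs detected was 34.3% ± 1.28 in Sham, 33.9% ± 3.70 in MI and 36.0% ± 1.495 in YQFM.

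**Figure D1:**
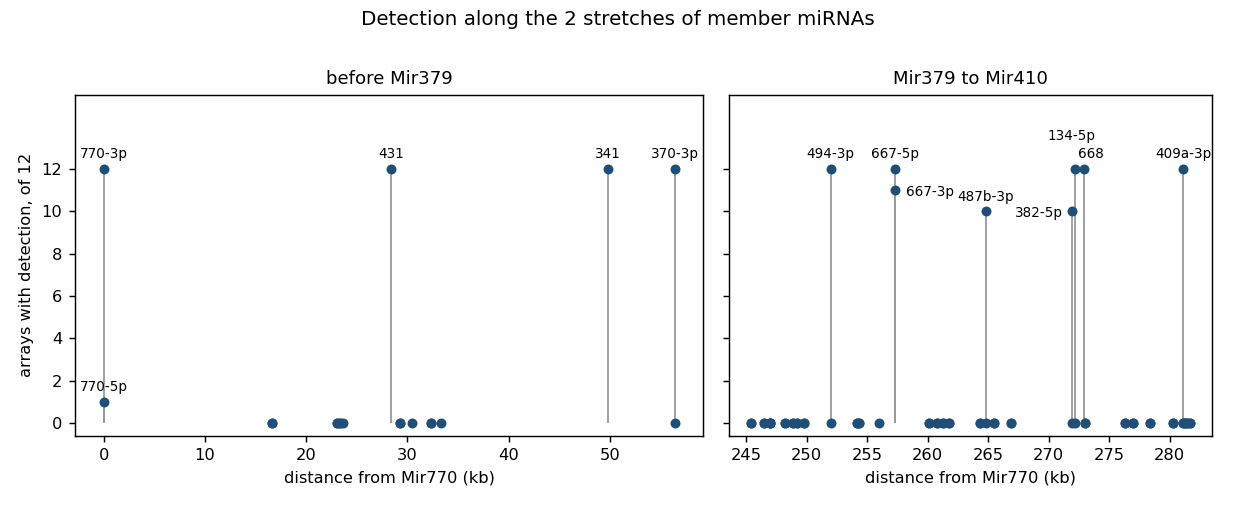
Number of arrays, of 12, on which each of the 84 members with a RefSeq position was detected, against the distance of its gene from Mir770 in kb (1 point per mature miRNA, the 2 stretches in separate panels). The 13 detected members, which are named, come from 4 of the 12 genes before Mir379 and 7 of the 34 genes from Mir379 to Mir410, with undetected members lying between them.

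The members at background included well-known ones. Among the miRNAs inside Rtl1, miR-127, miR-433, miR-434 and miR-136 were undetected on both arms, and only miR-431 was seen. miR-379, miR-410, miR-411, miR-376a, miR-376b, miR-376c, miR-377, miR-369, miR-329, miR-323, miR-299a, miR-299b, miR-300, miR-154, miR-380, miR-412, miR-485, miR-496, miR-539, miR-541, miR-543, miR-544, miR-666, miR-337, miR-493 and miR-540 were undetected on both arms, as were miR-381 and miR-758. miR-495, miR-665 and miR-409b, named without an arm, were undetected too. Where a precursor was detected, its partner arm was often not: miR-134-3p, miR-370-5p, miR-382-3p, miR-409a-5p, miR-487b-5p and miR-494-5p were at background. Both arms were detected only for miR-667 and miR-770, of the 8 detected genes with both arms on the array. The scaled signal of the 73 undetected members (linear brightness after all arrays were brought to a common 75th percentile) had a Sham median of -0.75, an MI median of -0.78 and a YQFM median of -0.64, all below the floor of 5.20. It passed that floor on any array for 4 of them, and its highest value was 10.4.

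The detected members were richer in G and C than the undetected ones. The median G and C share of the mature sequence was 63.6% in the 13 detected members (43.5% to 70.6%) and 47.6% in the 71 undetected members with a sequence (23.8% to 72.7%). Of the 40 members with a share of at least 50%, 11 were detected, and of the 44 below it, 2, which were miR-494-3p and miR-487b-3p. Among 600 other miRNAs of the array with a single RefSeq sequence, the same split gave 53.1% and 30.7% detected, so the direction was not particular to the cluster. The part of base content in probe signal was not tested.

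**Figure D2:**
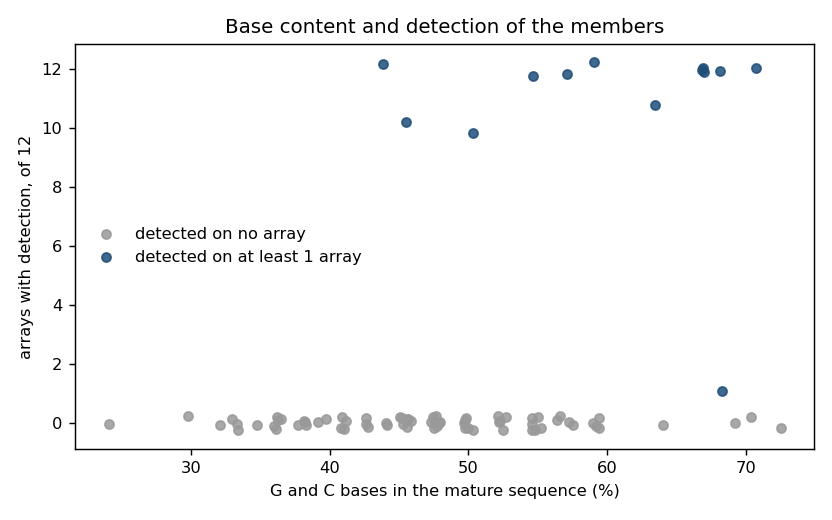
Arrays with detection, of 12, against the percentage of G and C bases in the mature sequence of the 84 members with a sequence (1 point each, moved slightly at random so that points do not hide each other). Detected members lie mostly above 50%, while undetected members cover the range from 23.8% to 72.7%.

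The signals of the 12 members detected on 10 or more arrays were compared between groups. Values below are scaled signals unless given as log2. They are not set against each other between miRNAs, since probes differ in brightness. The arrays sit on 3 slides: MI replicates 1 to 3 on slide 1, MI replicate 4 and YQFM replicate 1 on slide 2, and the 4 Sham arrays with YQFM replicates 2 to 4 on slide 3. No slide holds both MI and Sham, so that slide and infarction cannot be told apart in that comparison for any of the 4 MI arrays. In addition, the source names of MI replicate 4 and Sham replicate 4 give another group than their titles and group labels do, which were followed here. Results are given with and without these 2 arrays where that matters. Each array gave 12128 miRNA spots, none of them saturated, and the 75th percentile before scaling was 192 to 300.

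In the first stretch, miR-431 was lower in MI than in Sham. This miRNA, antisense to Rtl1, is described in muscle stem cells as a repressor of Pax7. Its signal was 57.1, 57.2, 45.8 and 49.99 on the 4 Sham arrays. It was 24.1, 38.0, 41.2 and 38.8 on the 4 MI arrays, and 34.8, 49.8, 60.2 and 56.1 on the 4 YQFM arrays. All MI values lay below all Sham values, while 1 YQFM value lay among the MI values and 3 lay above them.

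miR-770-3p, from the precursor inside Meg3, had signals of 22.1, 17.8, 19.6 and 20.5 in Sham. In MI they were 25.8, 24.0, 27.4 and 18, and in YQFM 17.9, 17.0, 18 and 15.6. MI replicates 1 to 3 were above every Sham and YQFM array, while MI replicate 4 was at the level of the highest YQFM array.

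miR-341, a rodent miRNA whose sequence repeats a short unit, had signals of 205, 342, 199 and 244 in Sham. In MI they were 191, 201, 216 and 247, and in YQFM 244, 280, 297.8 and 301. One Sham array (replicate 2) stood above all others, and YQFM overlapped MI by 1 array. miR-370-3p was close in all groups, with a Sham mean of 276 ± 42.7 (SD, n = 4), an MI mean of 268 ± 31.5 and a YQFM mean of 281 ± 42.9.

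In the second stretch, miR-409a-3p was lower on most MI arrays. Its signals were 36.5, 32.98, 31.3 and 27.1 in Sham, 20, 16.8, 21.0 and 29.1 in MI, and 23.6, 27.4, 30.7 and 20.7 in YQFM. MI replicates 1 to 3 were below every Sham array, and MI replicate 4 lay above the lowest Sham array.

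miR-487b-3p had signals of 25.7, 10.3, 18.3 and 21.4 in Sham, 11.9, 13.6, 5.05 and 11.4 in MI, and 17.5, 14.9, 14.6 and 12.5 in YQFM. It was detected on 2 of 4 MI arrays and on all Sham and YQFM arrays, and the groups overlapped. miR-382-5p was the most variable between rats of a group, at 6.94, 14.2, 17.0 and 16.2 in Sham, 11.5, 17.7, 44.7 and 19.9 in MI, and 13.1, 6.89, 11.7 and 14.1 in YQFM. MI replicate 3 held its highest value and the lowest value of miR-487b-3p.

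The other members of this stretch differed little. miR-134-5p, best known as a neuronal miRNA that limits the growth of dendritic spines, had a Sham mean of 574 ± 62.3 (SD, n = 4), an MI mean of 616 ± 109 and a YQFM mean of 517 ± 26.1. miR-494-3p was 130 ± 13.4, 148 ± 21.6 and 121 ± 12.1 in the same order, and miR-668 was 25.7 ± 4.72, 29.3 ± 5.70 and 28.7 ± 7.42. The 2 arms of miR-667 gave 33.9 ± 6.88, 36.4 ± 2.30 and 28.1 ± 6.57 for miR-667-5p, and 13.1 ± 3.06, 10.4 ± 1.37 and 11.1 ± 3.22 for miR-667-3p. All these groups overlapped.

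**Figure D3:**
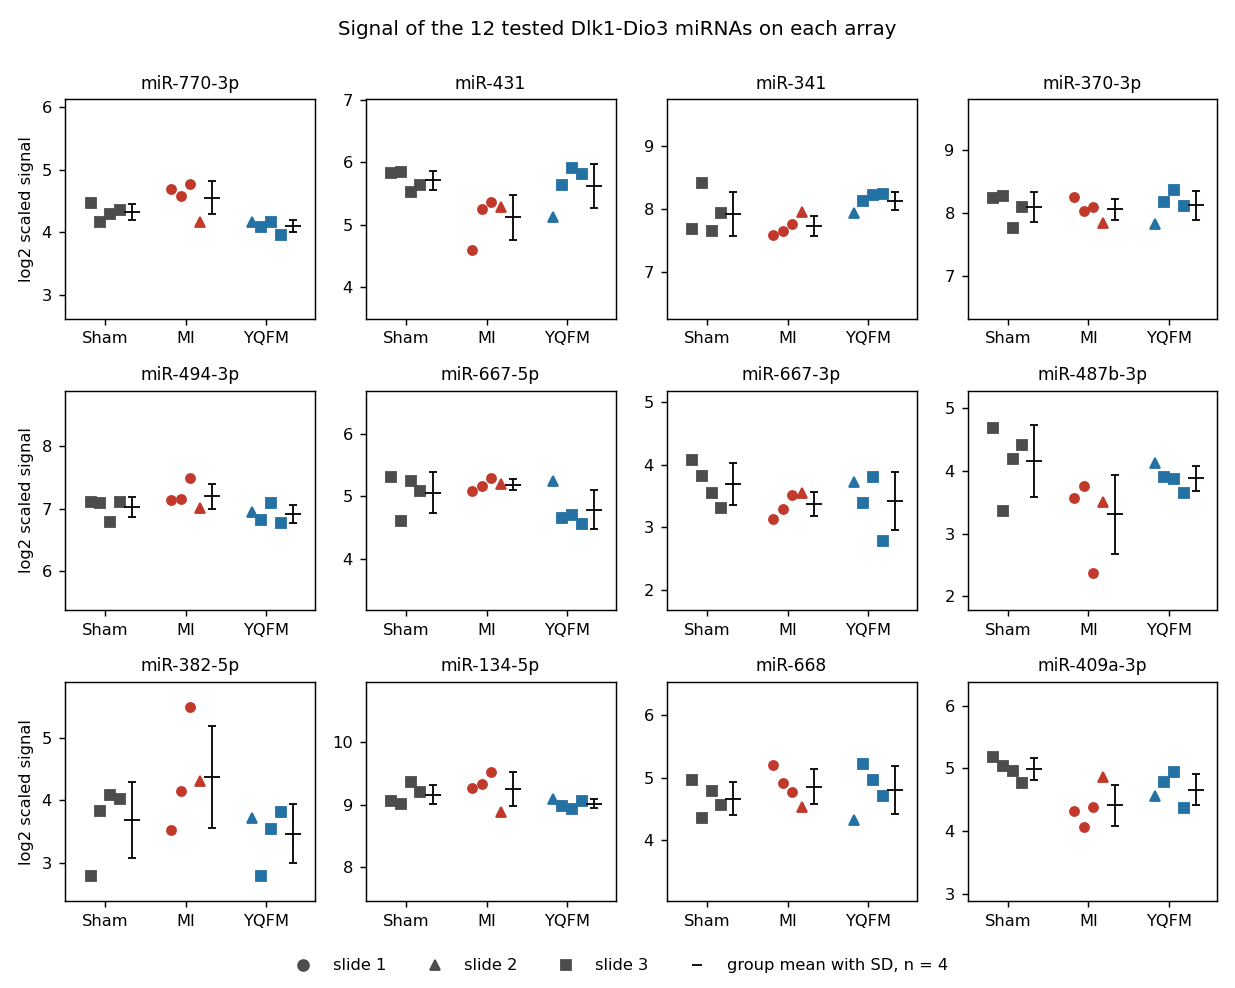
log2 scaled signal of the 12 tested members on each of the 12 arrays, by group (Sham, MI, YQFM), with the slide as the symbol and the group mean with SD (n = 4) as a black bar. Each panel spans the same log2 range. The MI points of miR-431 lie below all Sham points, and for miR-770-3p and miR-409a-3p the MI array on slide 2 lies apart from the 3 on slide 1.

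MI was compared with Sham by limma over all 263 miRNAs detected on at least 2 arrays of a group, with Benjamini-Hochberg adjustment. The 2 groups share no slide, so this fit cannot tell infarction from slide. No member passed an adjusted p of 0.05 in MI against Sham (0 of 12), where 7.22% of all tested miRNAs did (19 of 263). miR-409a-3p came nearest, with a log2 ratio of -0.58 ± 0.18 (SE), or 0.669-fold, and an adjusted p of 0.0618. miR-431 followed at -0.59 ± 0.20 (0.665-fold, adjusted p = 0.0839 by limma) and miR-487b-3p at -0.86 ± 0.33 (0.552-fold, adjusted p = 0.110 by limma). These 3 had an unadjusted p under 0.05, as did 29.3% of all tested miRNAs. The groups failed to overlap for 1 of the 12, miR-431, which was lower. The same was so for 11.8% of all tested miRNAs. The methods' t-test, unadjusted, gave 2 members (miR-409a-3p and miR-431) against 22.4% of all tested, and none of the 12 after adjustment.

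The cluster did not move one way. The log2 ratio of MI over Sham was above 0 for 6 members and below 0 for 6. It ran from -0.86 (miR-487b-3p) to 0.68 (miR-382-5p, adjusted p = 0.309 by limma), with a median of 0.03 against -0.04 over all 263. miR-770-3p stood at 0.24 ± 0.13 (adjusted p = 0.257 by limma). The 95% intervals of 9 of the 12 excluded both a doubling and a halving, and those of miR-382-5p, miR-431 and miR-487b-3p did not. These intervals make no allowance for slide.

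The MI array on slide 2, which also has the conflicting source name, weighed on these values. Without MI replicate 4, limma called 2 members: miR-409a-3p fell, at -0.73 (adjusted p = 0.00661), and miR-770-3p rose, at 0.36 (adjusted p = 0.0205). The same fit called 62 of the 263 miRNAs. Without both arrays of conflicting source name the same 2 were called (adjusted p = 0.00751 and 0.0381). With slide as a block, MI and Sham are linked only through the YQFM arrays. MI then enters through replicate 4 alone, since slide 1 holds no other group. In that fit miR-409a-3p stood at 0.01, miR-431 at 0.23, miR-770-3p at -0.24 and miR-487b-3p at -0.98. Without YQFM replicate 1, which changes only the estimate of spread in this comparison, miR-431 was the 1 member called (adjusted p = 0.0483 by limma), with 29 of the 263 miRNAs called in all.

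Repeated spots of the same probe differed in evenness between members. They are repeat readings of the same arrays and not of further rats. Ratios at single spots, here and below, keep readings that the scanner software marked as outliers. Those readings were left out of the signals and of the variation between spots. miR-409a-3p was read by 3 probes with 16 spots in all, and its MI mean was below its Sham mean at each of the 16, at 0.580 to 0.768 of it. At most of these spots the single MI and Sham values overlapped. Its spots varied by 8.24% to 9.02% (median coefficient of variation within an array), which is below the median of 10.6% over all detected probes of the array.

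The spots of miR-431 varied by 39.7%, more than those of 94.8% of the detected probes, and only 1 of its 2 probes was above background on all arrays. The ratio of its MI mean to its Sham mean was below 1 at 5 of its 8 spots: 0.592 at column 19 of the array, 0.707 at column 32, 0.376 at column 47, 0.444 at column 51 and 0.567 at column 53. It was above 1 at the other 3, at 1.47 in column 17, 1.52 in column 24 and 1.11 in column 67. Low and high ratios thus occurred in both parts of the array, and the log2 ratio was -0.32 from columns 1 to 41 alone and -0.51 from columns 42 to 82 alone. On MI replicate 1, which had the lowest signal of miR-431, the scanner software had marked 2 of its spots as outliers. These spots, in columns 17 and 67, were left out of its signal. Their readings remain in the ratios of 1.47 and 1.11 above.

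miR-770-3p was uneven as well, with its higher ratios in the left columns. The spots of its 2 probes varied by 29.1% and 34.8%, and at the 5 spots in columns 9 to 30 of the probe that was above background on all arrays, the MI mean was 1.58 to 2.02 times the Sham mean. At column 59 it was 0.576 times, at column 79 0.738 times and at column 80 1.13 times. At column 9, for example, MI replicates 1 to 3 read 37.7 to 43.3, while MI replicate 4 read 17.0 and the Sham arrays 11.7 to 24.3. Members that differed little between groups also had spot ratios on both sides of 1. They ran from 0.586 (column 56) to 1.425 (column 29) for miR-134-5p, with 10 of the 12 readings at column 56 marked as outliers. For miR-668 the ratios ran from 0.714 (column 58) to 1.547 (column 10). For miR-494-3p they ran from 0.775 (column 58, 5 of the 12 readings marked) to 1.509 (column 14). Whether the place of a spot, the slide or the infarction set these ratios was not tested. The probes of miR-487b-3p varied most, by 44.8% and 49.5%, and its log2 ratio was -0.32 from the spots in columns 1 to 41 of the array and -1.30 from those in columns 42 to 82.

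**Figure D4:**
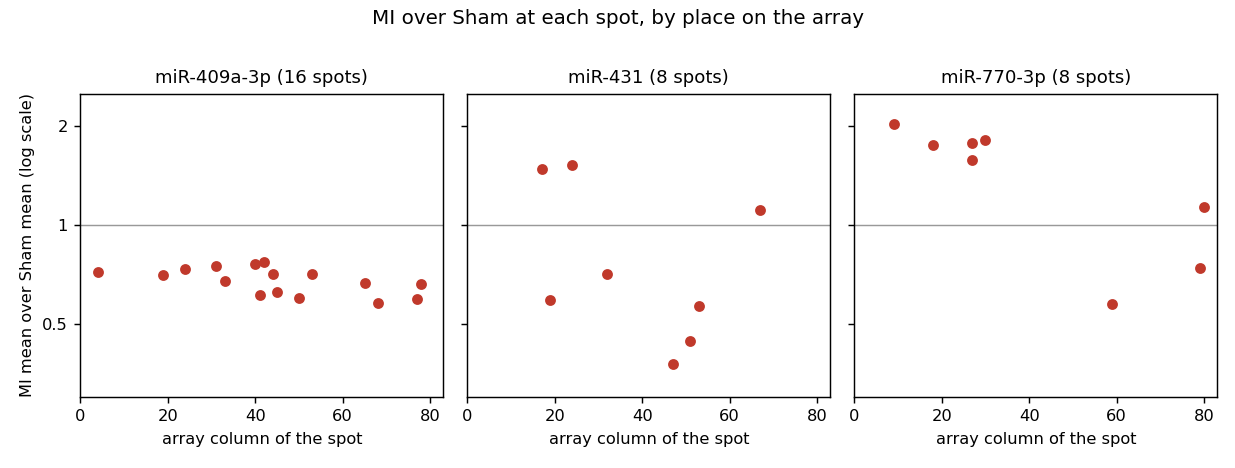
Mean signal of the 4 MI arrays over that of the 4 Sham arrays (log axis) at each spot, against the array column of the spot, for all probes of miR-409a-3p, miR-431 and miR-770-3p that were above background on all arrays. The 16 ratios of miR-409a-3p lie between 0.580 and 0.768, while those of miR-431 and miR-770-3p lie on both sides of 1. Readings marked as outliers are included.

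The effect of the treatment was addressed by comparing YQFM with MI, which share the ligation. No member passed the test (0 of 12), nor did any of the 263 miRNAs (0%). By limma, 5 members had an unadjusted p under 0.05, where 19% of all tested did. Of these, miR-770-3p was lower in YQFM, at -0.46 ± 0.13 (SE; 0.728-fold, adjusted p = 0.0841 by limma). Its log2 ratio was -0.71 from columns 1 to 41 of the array alone and -0.09 from columns 42 to 82 alone. miR-431 stood at 0.50 ± 0.20 (adjusted p = 0.214 by limma) and miR-341 at 0.40 ± 0.16 (adjusted p = 0.226 by limma), both higher in YQFM. miR-494-3p stood at -0.28 ± 0.12 (adjusted p = 0.245 by limma) and miR-667-5p at -0.40 ± 0.18 (adjusted p = 0.253 by limma). The methods' t-test, unadjusted, gave 3 members (miR-341, miR-667-5p and miR-770-3p) against 17.1% of all tested, and none after adjustment.

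The members again went both ways, 6 above 0 and 6 below, with a median of 0.0006 against -0.01 over all 263. The widest values were those of miR-382-5p (-0.90 ± 0.42) and miR-487b-3p (0.58 ± 0.33), which did not pass either threshold. miR-409a-3p stood at 0.25 ± 0.18. No member had groups that failed to overlap, where 6.46% of all tested did. The YQFM mean of miR-341 was above its MI mean at each of its 16 spots, by 1.06 to 1.92 times. These spots are repeat readings of the same arrays.

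Within-slide values were at hand for 1 pair of arrays only. On slide 2, the only slide with both groups, 1 YQFM array faced 1 MI array, and the log2 ratio was -0.00478 for miR-770-3p, -0.16 for miR-431, -0.02 for miR-341, -0.06 for miR-494-3p and 0.04 for miR-667-5p. These single differences have no replicate, and the part of the slide in the values was not tested. Without MI replicate 4, miR-770-3p fell by 0.59 on the log2 scale and was called (adjusted p = 0.00558 by limma), with 28 of the 263 miRNAs. Without YQFM replicate 1, miR-431 rose by 0.67 and was called (adjusted p = 0.0482 by limma), with 23 of the 263. With either array left out, no slide holds both groups, so that slide and treatment cannot be told apart.

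**Figure D5:**
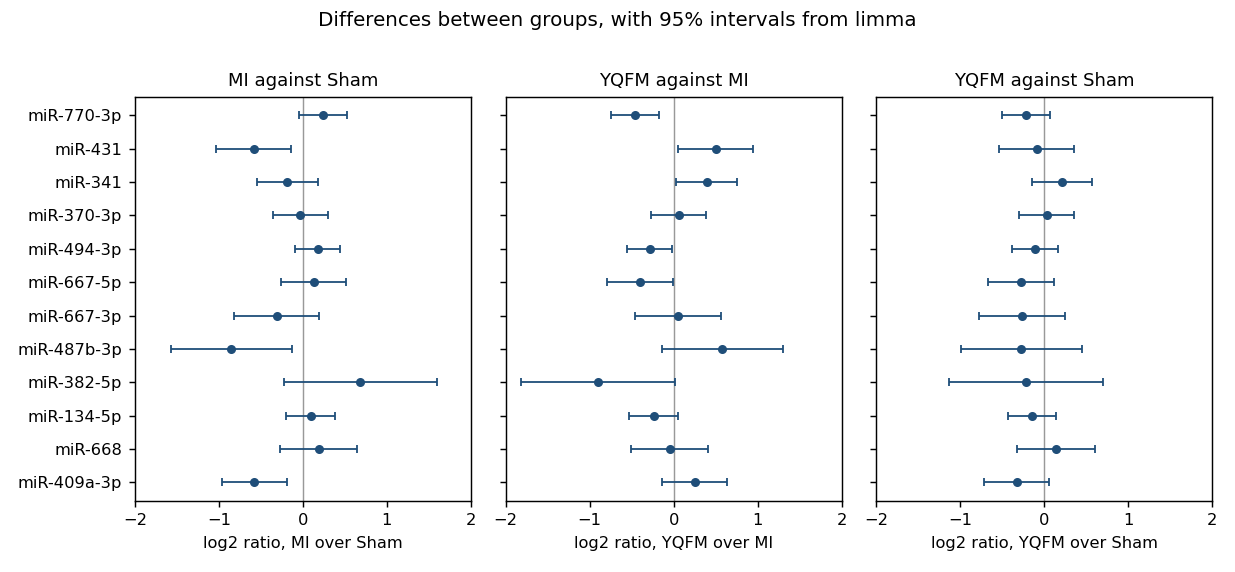
log2 ratio of the 12 tested members in each comparison, with the 95% interval from limma (4 arrays per group, the fit over all 12). Intervals that leave out 0 belong to 3 members in MI against Sham and 5 in YQFM against MI, none of which passed an adjusted p of 0.05, and to no member in YQFM against Sham.

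YQFM and Sham differ by both ligation and treatment, and share slide 3 for 7 of their 8 arrays. No member passed the test (0 of 12; 0% of all tested), and none had an unadjusted p under 0.05 by limma, where 5.7% of all tested did. The methods' t-test, unadjusted, gave 1 member (miR-770-3p) against 8.75% of all tested. The groups overlapped for all 12 members, and failed to overlap for 6.08% of all tested. The smallest adjusted p values by limma were 0.664 for miR-409a-3p, at -0.33 ± 0.18, and 0.664 for miR-770-3p, at -0.22 ± 0.13. miR-667-5p followed, at -0.27 ± 0.18 (adjusted p = 0.672 by limma). Within slide 3, with 3 YQFM and 4 Sham arrays, these 3 stood at -0.29, -0.24 and -0.42, and their groups overlapped. The median over the 12 was -0.18 and over all 263 it was -0.11. The 95% intervals of 11 members excluded a doubling and a halving, and that of miR-382-5p did not.

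miR-381-3p, the member among the miRNAs the study selected, was not detected on any array by the rule used here. Its scaled signal was 10.4, 3.49, 8.19 and 5.995 in Sham, 3.30, 3.53, 3.04 and 5.12 in MI, and 7.53, 5.53, 5.38 and 5.45 in YQFM. All 4 MI signals lie under the floor of 5.20, as does 1 Sham signal, so no fold change is given. The scanner software's own call, which is more lenient, marked it as present on 3 Sham arrays, 1 MI array and 3 YQFM arrays. In the authors' processed values it stood at 3.84 to 10.72 on those 7 arrays and at 0.1, the value set for a miRNA not called, on the other 5. The same call added miR-758-5p on 8 arrays, miR-540-3p on 7, and miR-495 and miR-665 on 1 YQFM array each, and it raised miR-770-5p to 6 arrays.

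Taken over both stretches together, the detected members had no common course across arrays. The miRNAs of a stretch are thought to be cut from shared long transcripts, but pairs within a stretch were not summarised apart. Over the 12 arrays, the 36 pairs among the 9 members detected on all arrays had a median Pearson r of -0.03 (-0.85 to 0.79), against 0.15 for the 20100 pairs among all 201 miRNAs detected on all arrays. The highest was miR-494-3p with miR-770-3p (0.79), from different stretches. The lowest was miR-341 with miR-667-5p (-0.85). After each group's mean was taken out, the medians were 0.09 and 0.16. These values describe 12 arrays that share scaling and slides.

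Imprinted miRNAs of other loci were counted beside them. From the Gnas, Igf2, H19, Mest and Sfmbt2 loci, 9 of 16 on the array were detected and 8 were tested. Those of H19 (miR-675, both arms) and Mest (miR-335) were at background on all arrays. In MI against Sham, which share no slide, 1 of the 8 passed, where 7.22% of all tested miRNAs did. It was miR-296-5p of the Gnas locus, which fell by 0.80 on the log2 scale (SE 0.21, adjusted p = 0.0456 by limma). None passed in the other comparisons.

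The tissue matched its label by its markers. Of 14 cardiomyocyte miRNAs (miR-1, miR-133, miR-208 and miR-499 families), 10 were detected. Of the 9 tested, 2 were called lower in MI than in Sham, where 7.22% of all tested miRNAs were called. These groups share no slide. The summed cardiomyocyte signal was 11968 to 16449 in Sham, 11185 to 13843 in MI and 11305 to 13724 in YQFM. Of 7 neuronal miRNAs, miR-124 and miR-9a were at background and only miR-128-3p was seen. The summed signal of 4 detected fibroblast miRNAs was 380 to 561 in Sham, 473 to 1104 in MI and 488 to 1543 in YQFM, with none called. The detected endothelial miRNAs (4 of 7) summed to 575 to 745, 720 to 959 and 590 to 742, with none called. Leukocyte miRNAs (4 of 8) summed to 623 to 721, 621 to 738 and 578 to 641, and erythrocyte miRNAs (2 of 5) to 198 to 251, 162 to 214 and 165 to 198. The part of cell makeup in the members' values was not tested.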

How the data were processed

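Total RNA from 12 hearts was hybridised to 1-colour Agilent rat miRNA arrays and scanned by the authors with Feature Extraction 10.7.1.1. The deposited scanner files hold linear intensity per spot, background-subtracted within the array and not scaled between arrays. The authors' processed intensity table equals the sum of a miRNA's probe signals above 3 times their error, or 0.1 where there is none (100% of values within 0.1%), and is not scaled. Control and outlier spots (902 to 1052 per array) were left out here, except that outlier spots stayed in the ratios at single spots. Processed signals were averaged over spots and probes, scaled so that the 201 miRNAs seen on every array had 1 common 75th percentile, floored at 5.20 (the lowest signal of a detected miRNA, on the array where that was highest) and taken to log2. The 263 miRNAs detected on at least 2 of 4 arrays of a group were fitted in limma 3.58.1 (R 4.3.3) over all 12 arrays, two-sided, with Benjamini-Hochberg adjustment. The fit was also run on simulated data with known changes and independent noise. Those data held no slide effect, so they do not bear on the slides. Members detected on 6 or more arrays, the 3 smallest p values per comparison and miR-381-3p are named with values, together with further members whose values the text compares. The members, lists and rules were chosen with earlier results of these data known. Replicates are separate rats. The precision is limited by 4 arrays per group. Sequences come from RefSeq (GRCr8, 84 of 86 members), and no coordinates were moved between builds. The alternatives were the background, scaling, floor, probe choice, filter, left-out arrays, blocks and the methods' unpaired test. After seeing the data, keeping outlier spots, medians over spots and fits on the left or right columns of the array alone were added.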

Additional observations from a re-analysis of the deposited data

Results flagged for a closer look

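Among the 36 combinations of 12 members and 3 groups, 2 held an array far from the other 3, where chance alone gives about 1 in 20. miR-431 on MI replicate 1 had a log2 signal of 4.59, the lowest of its group, on the array where 2 of its spots had been left out as outliers. miR-494-3p on Sham replicate 3 had a log2 signal of 6.79, the lowest of its group.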

How the results depend on the processing

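The counts of members called were 0 in all 3 comparisons. Leaving out single arrays gave 0 to 2 in MI against Sham, 0 to 1 in YQFM against MI and 0 in YQFM against Sham, and leaving out both arrays of conflicting source name gave 2, 1 and 0. The other settings, 18 per comparison, called no member. Over all miRNAs the 19 calls of MI against Sham became 0 with normexp background, total gene signal, no scaling or slide as a block, 2 to 12 with quantile scaling, the brightest probe, the percentile over all miRNAs, no detection filter (where most residual variances are 0), medians over spots, the left or right columns alone, the replicate block or the methods' t-test adjusted, 4 to 62 with single arrays left out, and 58 without both arrays of conflicting source name. In YQFM against MI the 0 calls became 28 without MI replicate 4, 28 without both those arrays, 23 without YQFM replicate 1, and 1 to 4 with the brightest probe, quantile scaling or the right columns alone. Without MI replicate 4 or YQFM replicate 1, no slide holds both of these groups. The replicate numbers did not pair the arrays (correlations of same-numbered arrays -0.64 to 0.32), and the replicate block called 0 members. Members detected per array moved to 14.25 in Sham, 13.25 in MI and 15.75 in YQFM with 1 spot sufficing, to 10.75, 10.25 and 10.5 with all spots required, and to 14.5, 13.25 and 15.25 both with the scanner software's call and with the authors' values. Leaving out arrays gave 11.67 to 12.33 in Sham, 11 to 11.67 in MI and 11.67 to 12 in YQFM.

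Of 496 values of named log2 ratios under the alternatives, 9 changed sign. With slide as a block, MI enters only through replicate 4, set against YQFM replicate 1 on the same slide. In that fit, miR-409a-3p turned to 0.00988, miR-431 to 0.23 and miR-770-3p to -0.24 in MI against Sham. In YQFM against MI, miR-431 turned to -0.16, miR-341 to -0.0165, miR-667-5p to 0.0425 and miR-409a-3p to -0.30. The right columns alone turned miR-770-3p in MI against Sham to -0.0806, and total gene signal turned miR-382-5p in YQFM against MI to 0.0637. The cause was not tested. Taking the brightest probe of each miRNA moved the median log2 ratio of all miRNAs in MI against Sham by 0.185, total gene signal moved it by 0.151, and no scaling moved that of YQFM against Sham by 0.144.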
